A study of Mus musculus with 12 samples.

Results

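β-Catenin occupied 3158 sites in wild-type control forelimb buds that were outside the peaks of histone H3 acetylated at lysine 27 (H3K27ac) and 1 to 10 kb away from the start of an annotated transcript (TSS). They were selected on the deposited peak lists themselves. A summit of the β-catenin consensus list of the wild-type controls on chromosomes 1 to 19 and X belonged to the class when the nearest transcript TSS of GENCODE M21 (build mm10) was at least 1000 bp and under 10000 bp away and when the summit was outside every consensus H3K27ac peak of controls and of C59-treated buds. The class held 19.5% of 16189 summits, and 79.7% of the 3962 summits in this distance range. Its place in the β-catenin list, its distance from a TSS and the lack of a consensus H3K27ac peak at the summit were therefore fixed by the selection and are no findings.

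The forelimb buds came from wild-type Swiss Albino mouse embryos treated at E10.5 and collected 6 h later. The pregnant females were injected intraperitoneally with C59 or, as the wild-type control, with DMSO in PBS. C59 inhibits porcupine, the acyltransferase that WNT proteins need to leave the cell. By the paper's methods the C59 solution also held methylcellulose and Tween-20, so the control was not its exact vehicle. Chromatin of pooled buds was immunoprecipitated with antibodies against β-catenin or H3K27ac, with 2 replicates per antibody and treatment, and every sample was the whole forelimb bud with all its cell types. Fewer cells with a bound site and less binding per cell cannot be told apart in such samples. With 2 replicates in each group, differences between treatments were set against the range of the replicates, and no exact permutation test can give a p below 0.33.

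β-Catenin is the transcriptional effector of canonical WNT signaling. Without a WNT ligand it is degraded by a complex built on AXIN and APC. With a ligand it enters the nucleus and binds to DNA through TCF/LEF factors, whose high mobility group domain recognizes a short core sequence. Acetylation of H3K27 marks active promoters and enhancers, and the limb bud uses WNT, BMP, FGF and SHH signals together for its outgrowth and patterning.

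The sequences under the strongest named members show the TCF/LEF core that the searches below rest on. Each line gives 41 bases centred on the core nearest to the summit, read from GRCm38 in the direction in which the core reads CTTTGAA or CTTTGAT, with the core in capitals and the gene with the nearest TSS as the name. They are the 12 named members of highest fold enrichment that had a core.
Gm45572 (chr8:26961504-26961544, minus strand): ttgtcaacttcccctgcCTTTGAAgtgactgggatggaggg
2310008N11Rik (chr8:26833481-26833521, minus strand): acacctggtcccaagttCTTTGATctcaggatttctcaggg
4930551O13Rik (chr2:5045362-5045402, plus strand): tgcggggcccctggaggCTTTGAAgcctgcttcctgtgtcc
Gm13552 (chr2:59562860-59562900, plus strand): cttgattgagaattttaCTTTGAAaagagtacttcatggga
Gm8062 (chr13:73833947-73833987, plus strand): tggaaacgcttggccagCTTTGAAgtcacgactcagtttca
Eya2 (chr2:165653685-165653725, plus strand): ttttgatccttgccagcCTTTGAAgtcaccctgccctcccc
Gm42497 (chr5:128244327-128244367, minus strand): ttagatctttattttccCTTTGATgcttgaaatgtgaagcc
Wnt10a (chr1:74797603-74797643, minus strand): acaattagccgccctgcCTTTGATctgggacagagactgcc
Gm12292 (chr11:64834103-64834143, plus strand): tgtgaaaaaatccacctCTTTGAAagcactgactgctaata
Lef1 (chr3:131106086-131106126, minus strand): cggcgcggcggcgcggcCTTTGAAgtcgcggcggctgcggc
Axin2 (chr11:108947624-108947664, plus strand): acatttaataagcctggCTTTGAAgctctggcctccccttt
Bcas3 (chr11:85584244-85584284, plus strand): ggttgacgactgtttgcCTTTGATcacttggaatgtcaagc
In all 12 windows the 200 bp around the summit held 1 core, at most 57 bp from the summit. The core lay 5 bp from the summit at Axin2, 6 bp at Wnt10a and 9 bp at Bcas3. CTTTGAA was the core at 8 of these sites and CTTTGAT at 4.

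The members were spread over introns and intergenic sequence near many kinds of genes. Of the 3158 summits, 1544 (48.9%, 95% Wilson interval 47.2 to 50.6%) were in an intron of a protein-coding gene, 1174 (37.2%) were intergenic, 352 (11.1%) were in a non-coding gene or pseudogene, 57 (1.80%) in an exon and 31 (0.982%) in a UTR. These intervals, like all those below, cover counting error over summits only. The class is called promoter-flanking, but the nearest TSS belonged to a protein-coding gene for only 1422 members (45.03%, 43.3 to 46.8%), to a lincRNA for 517 and to a processed pseudogene for 459. The protein-coding share was similar at all 16189 summits (44.2%) and at the acetylated summits of the same distance range (46.6%). Only 1143 members (36.2%) had a TSS of a protein-coding transcript within 10 kb. Upstream and downstream positions were about equally frequent, with 47.7% upstream (45.9 to 49.4%). The median distance was 4.62 kb, and members became sparser with distance from the TSS on both sides. This profile is not given here for other positions in the genome, so the decline is a description only.

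**Figure D1:**
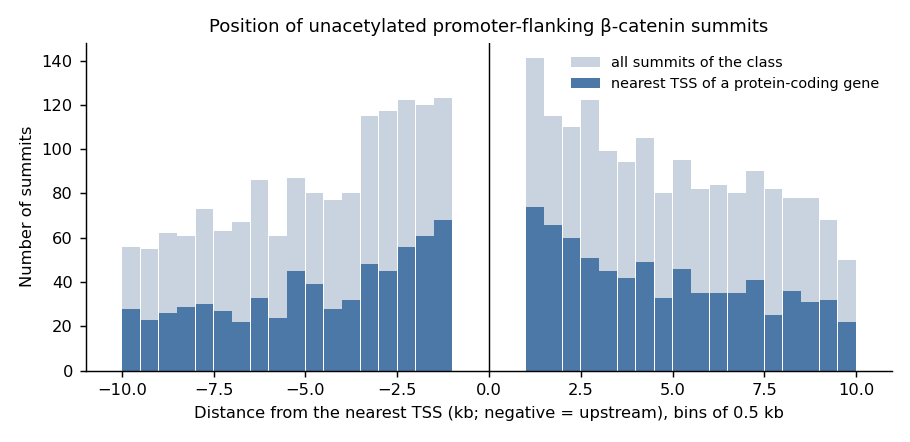
Number of members (vertical axis) by signed distance from the nearest TSS in kb (horizontal axis, negative values upstream), in bins of 0.5 kb. Pale bars count all 3158 members and dark bars the 1422 whose nearest TSS is of a protein-coding gene, and no member lies within 1 kb because the selection excludes it.

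Intronic positions were more frequent here than in the neighbouring classes. The share was 48.9% for the members and 41.9% for the 804 summits at the same distance inside H3K27ac peaks, a difference of 6.98 percentage points (95% Newcombe interval 3.12 to 10.8). It exceeded the 37.3% of the 8023 unacetylated summits at least 10 kb from a TSS by 11.6 points (9.57 to 13.6) and the 39.4% of the 829 unacetylated summits under 1 kb from a TSS by 9.45 points (5.65 to 13.2). Summits in exons and UTRs do not count as intronic. Anywhere inside a protein-coding gene were 51.7% of members and 53.0% of unacetylated summits under 1 kb from a TSS (difference -1.28 points, -5.08 to 2.55). This share exceeded that of the acetylated summits by 5.04 points (1.17 to 8.88). It exceeded that of unacetylated summits at least 10 kb away by 13.5 points (11.4 to 15.5). The part of the distance limits in these differences was not tested.

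Members and non-members at the limits of the class had overlapping values. The 5 members nearest to the 1 kb limit were 1001 to 1006 bp from a TSS with fold enrichments of 5.41 to 7.12, and the 5 unacetylated summits just short of it were 985 bp away or more with 5.27 to 15.9. At the 10 kb limit, the 5 outermost members were at 9990 to 9997 bp with fold enrichments of 4.28 to 11, and the 5 summits beyond it were at 10000 to 10012 bp with 5.75 to 9.26. At the H3K27ac limit, the 5 nearest members were up to 6 bp outside a peak, and the 5 nearest acetylated summits of this distance range were up to 4 bp inside one.

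The fold enrichment of the members, the ratio of fragment coverage at the summit to the coverage that the authors' peak caller expected there, is a value of the list that chose them and is given as a description. In the consensus list it had a median of 6.89, quartiles of 5.46 and 9.50, and a range of 2.28 to 35.2. The median was 6.57 for the acetylated summits at the same distance and 7.13 for the unacetylated summits at least 10 kb from a TSS. In 2890 members (91.5%) both replicates had their own summit within 100 bp, and there the median was 6.28 (quartiles 4.98 and 8.50) in replicate 1 and 6.49 (4.98 and 8.97) in replicate 2. The fold enrichments of the replicates differed by less than 1.5 times at 2620 of these sites (90.7%), with a Pearson correlation of 0.82 on the log2 scale across the 2890 sites, all of which are from the same 2 libraries. The median coverage at the summit was 18 fragments in replicate 1 and 21 in replicate 2, so most members rest on few fragments.

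**Figure D2:**
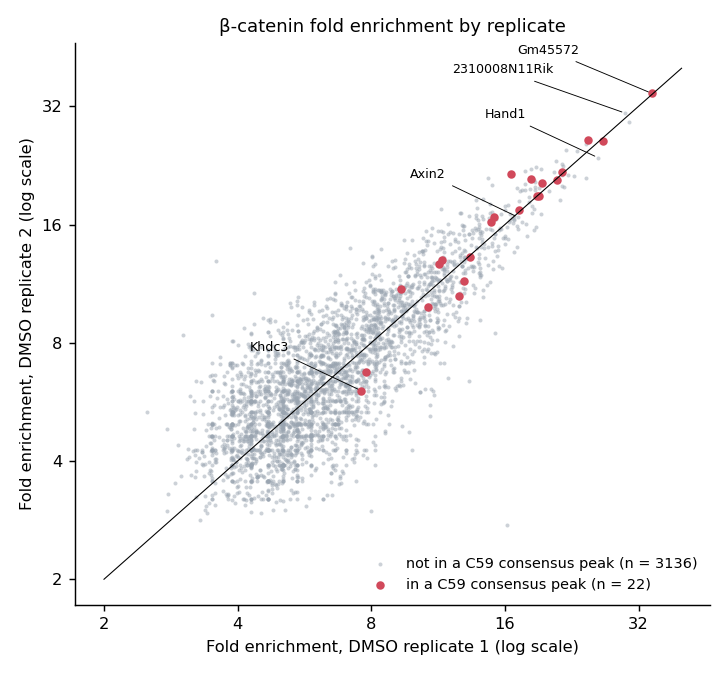
Fold enrichment of β-catenin in DMSO replicate 1 (horizontal axis) and replicate 2 (vertical axis), both on log scales, for each member, taken from the replicate summit nearest to it in the same peak region. The line marks equal values. Red points are the 22 members in a C59 consensus peak, most of which are at the upper end, with Khdc3 and Cldn34d as exceptions.

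The strongest member lay 4.96 kb upstream of the lincRNA Gm45572 on chromosome 8 (summit 26961472), with fold enrichments of 34.3 and 34.5 in the DMSO replicates. The second, 8.55 kb upstream of the pseudogene Gm37994 on chromosome 1 (summit 167194942), had 30.5 and 29.2. The third lay 8.44 kb downstream of the TSS of 2310008N11Rik, also on chromosome 8 (summit 26833558), with 29.9 and 30.7. The replicates differed by less than 1.5 times at each of them, and all values were above the upper quartile of the class.

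Next came a site 8.09 kb downstream of the TSS of the antisense transcript 4930551O13Rik, in an intron of Optn, with fold enrichments of 26.6 and 26.0. The site near the pseudogene Gm13552 had 24.6 and 26.3. Hand1, which encodes a basic helix-loop-helix transcription factor, had a site 4.54 kb downstream of its TSS, with 25.9 and 23.7.

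An intronic site of M1ap near the pseudogene Gm43985 had fold enrichments of 24.3 and 25.7. The site assigned to the pseudogene Gm8062 by the nearest TSS is in an intron of Nkd2, an inhibitor of WNT signaling that binds Dishevelled, with 23.3 and 24.6. Eya2, which encodes a transcriptional coactivator of muscle precursors, had an intronic site with 21.9 and 24.8. The site near Gm42497, in an intron of Tmem132d, had 24.4 and 20.97.

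Of these 10 sites, 2, those of Hand1 and Eya2, had a protein-coding gene as the nearest TSS. A TCF/LEF core was present at 7 of the 10, and 6 were within 500 bp of an H3K27ac peak. Over all members, 45.03% were nearest to a protein-coding gene, 33.2% had a core and 14.2% were within 500 bp of H3K27ac.

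A TCF/LEF core was found in the 200 bp around 1048 of 3158 members (33.2%, 31.6 to 34.8%), against 538 of 6316 control windows taken 2 kb to either side of the same summits (8.52%). The difference was 24.7 points (22.9 to 26.5), a ratio of 3.90. Of all 16189 summits 28.6% had a core. The spellings contributed alike, with CTTTGAT on either strand at 17.4% of members and CTTTGAA at 17.8%, against 4.20% and 4.48% of control windows. The cores gathered at the summit, since 74.3% of the 1186 cores were centred within 50 bp of it, whereas 53.0% of the 562 cores in control windows were within 50 bp of the window's centre. A window held 2 or more cores at 128 members.

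The core was more frequent at the members than at the acetylated summits of the same distance range, by 12.3 points (8.93 to 15.4). There 168 of 804 summits (20.9%, 18.2 to 23.8%) had it. In contrast, the share differed little from that of other unacetylated summits, at 31.1% for those under 1 kb from a TSS (difference 2.06 points, -1.55 to 5.54) and 31.6% for those at least 10 kb away (1.54 points, -0.380 to 3.48). When the classes were formed from the summits of 1 replicate, the unacetylated 1 to 10 kb class had a core at 30.5% of 3911 summits in replicate 1 and 30.02% of 4964 in replicate 2, and the acetylated one at 18.8% in each. Control windows of the acetylated summits had a core in 7.84%.

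**Figure D3:**
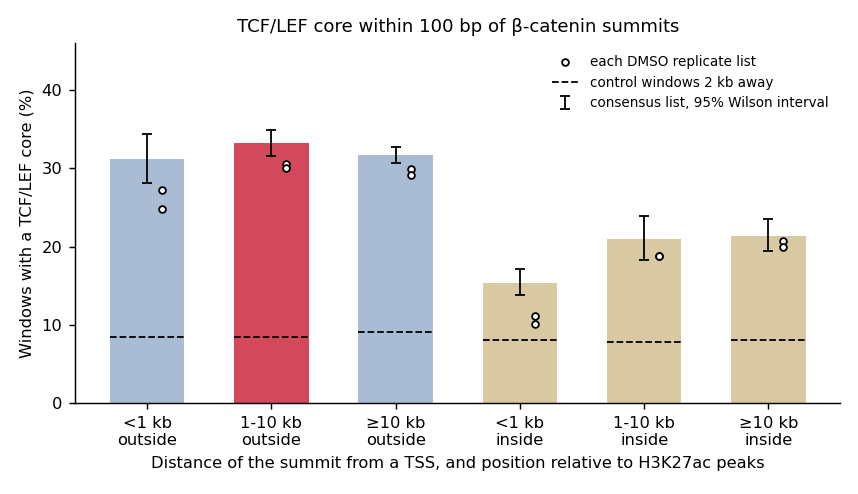
Share of β-catenin summits with a TCF/LEF core in 200 bp (vertical axis, percent) for 6 classes by distance from a TSS and by position inside or outside H3K27ac peaks. Bars are the consensus list with 95% Wilson intervals, open circles the same class formed from each DMSO replicate list, and dashed lines the control windows. The 3 unacetylated classes stand at 31.1 to 33.2% and the acetylated ones at 15.4 to 21.4%.

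Base composition and peak strength also differed between the acetylated and unacetylated sites, so the comparison was repeated within strata. The median GC content of the window was 44.5% for members and 51% for acetylated summits at this distance, and 44% in the members' control windows. With a GC content under 45% the share with a core was 32.6% of 1594 members and 21.2% of 165 acetylated summits, and with 50% or more it was 34.0% of 700 and 18.97% of 448. By fold enrichment, the difference was 14.8 points (10.6 to 18.5) under a fold of 7 and 11.5 points (4.48 to 17.8) from 7 to under 10. At a fold of 10 or more it was 4.50 points (-4.03 to 12.4), with 39.1% of 698 members and 34.6% of 156 acetylated summits, and was not resolved at this number of sites. Among the members, the share with a core was 27.3% of 521 below a fold of 5 and 54.3% (40.2 to 67.8%) of the 46 with a fold of 20 or more.

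Several short sequences of other transcription factor families were also more frequent at members than in control windows, but most were nearly as frequent at all summits. TAATTA, a homeodomain core, was present in 16.7% of member windows, 6.57% of control windows and 9.95% of acetylated summits at this distance, 6.77 points above the latter (4.18 to 9.08). CATAAA, a core of posterior HOX proteins, was present in 25.2%, 14.1% and 18.7%. CAGCTG, an E-box bound by basic helix-loop-helix factors, was present in 19.98% of members and 8.17% of control windows, but in 24.5% of acetylated summits, a difference of -4.52 points (-7.90 to -1.34). CATCTG, another E-box, was at 30.8% of members, 13.98% of control windows and 31.0% of acetylated summits, a difference of -0.128 points from the latter (-3.77 to 3.38). GGGCGG, the GC box of SP factors, was at 5.70% of members and 17.04% of acetylated summits. TGTGGT, the core of RUNX factors, was as frequent at members (15.4%) as in control windows (14.9%, difference 0.459 points, -1.05 to 2.02). Of the others searched, AAACAG was at 26.2% of members and 21.9% of acetylated summits, GCCGCC at 4.88% and 15.2%, and TGACTCA, the site of AP-1, at 3.07% and 1.87%, with 3.13% of control windows for the last. Over all β-catenin summits TAATTA was at 14.8%, CATAAA at 23.3%, CAGCTG at 18.8%, CATCTG at 27.8% and AAACAG at 23.9%. TGTGGT was at 13.9% and TGACTCA at 2.63% of them. GGGCGG and GCCGCC were at 11.3% and 9.65%, above the members. The contrasts with acetylated summits were not repeated within strata of GC content. All the sequences were searched on both strands and were chosen after their values had been seen, and a match is only a match of letters.

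Few of these sites were in the β-catenin lists of C59-treated buds. Of the members, 22 of 3158 (0.697%, 0.461 to 1.05%) were in a C59 consensus peak, and 35 were in a peak of C59 replicate 1 and 34 in one of replicate 2. Of all control summits 1.12% were in a C59 consensus peak. The acetylated summits of the same distance range were in one more often, at 30 of 804 (3.73%, 2.63 to 5.28%), a difference of -3.03 points for members against acetylated summits (-4.60 to -1.87). The difference was -3.49 points (-5.199 to -2.18) with the peaks of C59 replicate 1 and -3.65 points (-5.37 to -2.32) with those of replicate 2. The unacetylated summits under 1 kb from a TSS (0.603%) and at least 10 kb from one (0.586%) differed from the members by 0.0935 points (-0.742 to 0.589) and 0.111 points (-0.194 to 0.495).

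The higher share at acetylated summits was present at each level of fold enrichment in controls. At a fold of 10 or more, 20 of 698 members (2.87%) and 15 of 156 acetylated summits (9.62%) were in a C59 peak, a difference of -6.75 points (-12.5 to -2.75). From 7 to under 10 the counts were 1 of 841 and 5 of 206, and under 7 they were 1 of 1619 and 10 of 442. A site that is missing from the C59 lists is not shown to be free of β-catenin. With a background coverage of 1.57 and 1.81 fragments in the DMSO replicates and 1.83 and 1.82 in the C59 replicates, the libraries were of like depth, but no C59 summit had a −log10 p below 5.69 or a coverage below 11 fragments, against 8 fragments in controls. Of the members, 2769 (87.7%) exceeded the higher C59 limit, a −log10 p of 5.76, in both DMSO replicates, and 22 of these (0.795%) were in a C59 consensus peak.

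The 22 members in C59 peaks were mostly strong sites with lower values after C59. Their median fold enrichment in controls was 18.02, against 6.88 for the other members, and 10 of the 46 members with a fold of 20 or more were among them. Their consensus fold enrichment after C59 was 5.15 to 17.6, lower than in controls at 20 of the 22, with a median ratio of 0.412. At Gm45572 the value was 34.3 and 34.5 in controls and 8.48 and 12.3 after C59. At 4930551O13Rik it was 26.6 and 26.0 in controls and 8.56 and 10.02 after C59, and at Gm13552 it was 24.6 and 26.3 against 7.34 and 6.41. The replicates did not overlap between the treatments at these 3 sites. Members were chosen from the control list, and the named ones by their control values. Lower values after C59, here and over the 22, were favoured by that choice. The ratio is not given here for all control summits in C59 peaks.

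Among the next in strength, Ubl4b, which encodes a ubiquitin-like protein, had a site at 21.5 and 21.8 in controls and 8.09 and 9.86 after C59. The lincRNA Gm12292 had 21.01 and 20.8 against 7.53 and 8.24. An intronic site of Kcnma1, a potassium channel gene, near 5430425E15Rik had 19.4 and 20.4 in controls and 6.33 in C59 replicate 2, while no peak of replicate 1 covered the summit of the controls.

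Akap2, whose product anchors protein kinase A, had a site at 19.1 and 18.9 in controls and 4.10 and 5.18 after C59. Fancl, a ubiquitin ligase gene of the Fanconi anemia pathway, had 16.5 and 21.5 against 7.78 and 6.03. Dnm3, which encodes a dynamin, had a site in an exon with 18.9 and 18.9 against 6.68 and 6.89. Control replicates were above C59 replicates at all of these, which the choice of sites by their control values favoured.

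A site near the pseudogene Gm2651 changed least among the strong ones, with 18.3 and 20.9 in controls and 13.8 and 15.6 after C59. The central 50 bases of this site occur at 2 places in the assembly, the only such case among the 22. Khdc3 and the X-linked Cldn34d had a higher consensus value after C59, but at low levels. Khdc3 had 7.59 and 6.04 in controls and 7.18 and 9.57 after C59, and Cldn34d had 7.79 and 6.76 against 7.78 and 6.03, so the replicates of the treatments overlapped at both.

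The remaining strong members had no C59 consensus peak. Gm37994, 2310008N11Rik, Gm43985, Gm8062 in Nkd2 and Gm42497 had no peak of either C59 replicate over the summit, whereas a peak of C59 replicate 1 covered that of Hand1 with 5.92 and that of Eya2 with 3.98. A TCF/LEF core was present at 4 of the 22 members in C59 peaks (18.2%, 7.31 to 38.5%) and at 1044 of the 3136 others (33.3%, 31.7 to 35.0%).

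The lack of H3K27ac at the summit did not mean that the mark was far away. The median distance to the nearest consensus H3K27ac peak was 19.7 kb, and 1887 members (59.8%) were more than 10 kb from one, yet 448 (14.2%, 13.0 to 15.4%) were within 500 bp and only 79 between 500 bp and 1 kb. The mark was on both sides within 1 kb at 61 members. The share within 500 bp was 11.04% for unacetylated summits at least 10 kb from a TSS, 3.14 points lower (1.77 to 4.57), and 49.5% for those under 1 kb from one. It was 10.8% for members with a fold of 5 to under 7, 26.6% (19.6 to 35.0%) for those with a fold of 15 to under 20 and 32.6% (20.9 to 47.0%) from 20 upwards. Gm45572 (74 bp), Gm8062 (47 bp), Axin2 (12 bp), Bmp7 (94 bp) and Wif1 (124 bp) are such edge sites.

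Members at the edge of H3K27ac peaks had values nearer to those of acetylated summits. A core was present at 95 of 448 (21.2%) within 500 bp and at 953 of 2710 (35.2%) farther away, a difference of -14.0 points (-17.9 to -9.56). In C59 consensus peaks were 12 of the 448 (2.68%) and 10 of the 2710 (0.369%), a difference of 2.31 points (1.13 to 4.26). Individual H3K27ac replicate lists reached past the consensus list at few members. A peak of DMSO replicate 1 covered 19 members, one of DMSO replicate 2 covered 58, one of C59 replicate 1 covered 57 and one of C59 replicate 2 covered 20, and 136 members (4.31%) were in at least 1 of these.

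**Figure D4:**
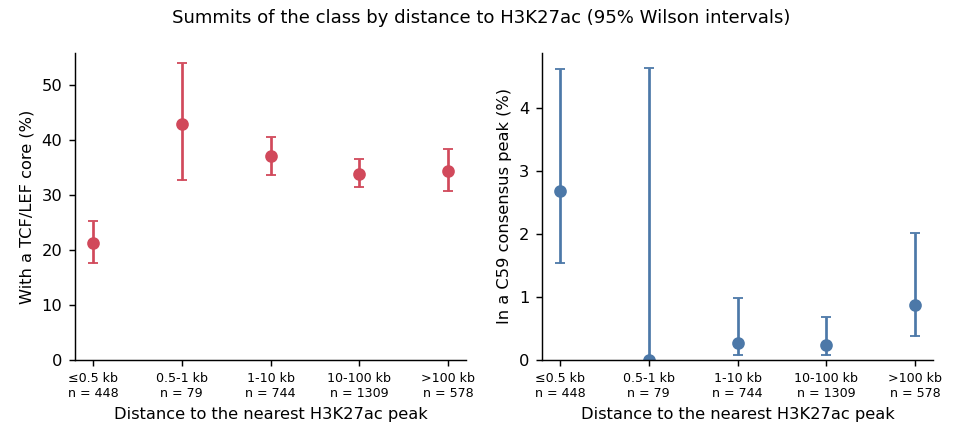
Share of members (vertical axes, percent) with a TCF/LEF core, left, and in a C59 β-catenin consensus peak, right, by distance to the nearest consensus H3K27ac peak. Points carry 95% Wilson intervals and the number of members stands under each group. The group within 0.5 kb is lowest for the core and highest for C59 peaks.

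The nearest promoters were mostly unacetylated too. The nearest TSS was in an H3K27ac consensus peak of controls for 368 members (11.7%, 10.6 to 12.8%), against 26.6% of all annotated TSS positions. The share depended on which TSSs and which distance counted. It was 30.2% of the 1235 summits selected with TSSs of protein-coding transcripts only, and 18.6% of members when a peak within 1 kb of the TSS sufficed. It was so for 316 of the 1422 members nearest to a protein-coding gene (22.2%, 20.1 to 24.5%), 14 of 517 at a lincRNA (2.71%) and 3 of 459 at a processed pseudogene (0.654%). Of the TSS positions of all protein-coding genes 34.6% were in such a peak, and 6.71% of the others. The share was 12.9% for the acetylated summits of this distance range, a difference of -1.28 points (-4.00 to 1.16), and 8.20% for unacetylated summits at least 10 kb away, 3.45 points lower (2.21 to 4.75). A core was about as frequent at members with an acetylated nearest TSS (31.5%) as at the others (33.4%).

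No difference in H3K27ac at these promoters was detectable between C59 and DMSO. The nearest TSS was in a peak for 10.4% and 10.99% of members in the DMSO replicates and 11.3% and 10.51% in the C59 replicates. The means were 10.7% ± 0.448 and 10.9% ± 0.537 (SD, n = 2 each), a difference of 0.222 points (exact permutation test, two-sided, p = 0.67, where the smallest possible p is 0.33). The consensus lists had 368 each, of which 339 were in both lists, 29 in that of controls alone and 29 in that of C59-treated buds alone.

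By the nearest TSS, the members belonged to 2614 genes, 2195 of them with a single member and 26 with 4 or more. They included 1138 of 21755 protein-coding genes (5.23%). Without DMSO replicate 1, the class formed from replicate 2 alone had 4964 members and included 8.29% of these genes. In the gene lists examined, 70 of 319 genes had a member. These lists were chosen with results of these data known, so their counts describe the class and do not test it.

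**Figure D5:**
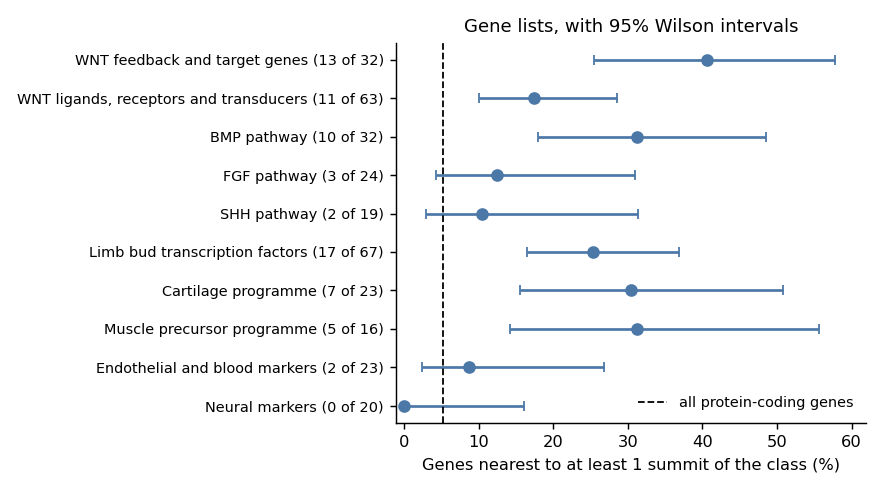
Percentage of genes in each list that are nearest to at least 1 member (horizontal axis), with 95% Wilson intervals. The dashed line is the share of all protein-coding genes, 5.23%, and the list of WNT feedback and target genes is highest at 40.6% while neural markers are at 0.

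Genes that respond to WNT signaling or restrain it had the highest share, with 13 of 32 (40.6%, 25.5 to 57.7%). They were Axin2, Lef1, Tcf7, Wif1, Apcdd1, Nkd1, Nkd2, Znrf3, Sp5, Lgr6, Sfrp5, Tnfrsf19 and Bambi, with 14 members between them, of which 8 had a core and 7 a nearest TSS in an H3K27ac peak of controls. Over all members these shares were 33.2% and 11.7%. None of the 14 was in a peak of either C59 replicate, but only 1.55% of all members were in one. Of the 32 genes, 3 were nearest to an acetylated summit at 1 to 10 kb, and over all protein-coding genes that share was 1.37%. Some β-catenin summit under 10 kb away was nearest to 21 of the 32, against 12.97% of all protein-coding genes. The high share was therefore not particular to the members.

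Lef1, one of the DNA-binding partners of β-catenin, had a site 4.38 kb upstream of its TSS (chromosome 3, summit 131106088) with fold enrichments of 18.2 and 19.8 in the DMSO replicates. Axin2, the inducible scaffold of the β-catenin destruction complex, had an intronic site 4.03 kb downstream (chromosome 11, summit 108947649) with 17.1 and 16.7. Wif1, a secreted protein that binds WNT ligands, had an intronic site 7.07 kb downstream with 13.7 and 15.7. All 3 sites had a core.

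Tcf7, another TCF/LEF factor, had 2 members, the stronger of which was 4.01 kb upstream with 11.7 and 13.6 and had no core. Apcdd1, a membrane protein that inhibits WNT signaling, had an intronic site 1.40 kb downstream with 8.79 and 10.3. Nkd1, an inhibitor that binds Dishevelled, had an intronic site at 8.12 and 7.96 with a core. No peak of either C59 replicate covered a member of these 6 genes, as at nearly all members of the class.

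Ligands, receptors and transducers of WNT had a member at 11 of 63 genes (17.5%, 10.04 to 28.6%). Some β-catenin summit under 10 kb away was nearest to 25 of the 63, against 12.97% of all protein-coding genes. Wnt10a, a ligand, stood far above the others, with an intronic site 4.27 kb downstream at 22.8 and 21.3 and a core 6 bp from the summit. The receptor gene Lgr4, whose product binds R-spondins, had 9.02 and 7.61, and the ligand gene Wnt7b had 5.84 and 6.87. Ctbp2, a corepressor gene, had 8.58 and 4.71, the least even of these pairs. The ligand gene Wnt11 had 6.36 and 6.86 and Tcf7l2, a TCF/LEF factor, had 6.96 and 7.32.

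In the BMP pathway, 10 of 32 genes (31.3%, 17.95 to 48.6%) had 13 members, 6 of them with a core. Over all members the core share was 33.2%. Of the 32 genes, 18 were nearest to some β-catenin summit under 10 kb away, against 12.97% of all protein-coding genes. Bmp7, a ligand, had an intronic site 6.12 kb downstream at 15.99 and 14.8, and Msx1, a homeobox gene that responds to BMP, had a site 2.35 kb upstream at 13.0 and 15.9, both with a core. Bmpr1b, a receptor gene, had 6.47 and 10.4, and the ligand gene Bmp5 had 8.62 and 6.76. Gdf5, a ligand of developing joints, had 6.09 and 9.63, and Id1, which encodes an inhibitor of helix-loop-helix factors, had 5.96 and 7.68. The spread between replicates at the last 4 was as large as the differences between them.

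FGF and SHH pathways had fewer. In the FGF pathway 3 of 24 genes had a member (12.5%, 4.34 to 31.0%), namely Etv1, Spred2 and Il17rd, with consensus fold enrichments of 3.15 to 7.01. In the SHH list only Hand1, a transcription factor gene, and Scube1 (2 of 19) had any. That list was not limited to components of SHH signal transduction. Scube1, which encodes a secreted protein, had a site 6.13 kb upstream at 15.1 and 16.8 in controls that was in peaks of both replicates after C59 with 4.86 and 5.63, the only member of any list in a C59 consensus peak. The intervals of both shares include the 5.23% of all protein-coding genes.

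Limb bud transcription factors had a member at 17 of 67 genes (25.4%, 16.5 to 36.9%), 23 in all, of which 9 had a core. Over all members the core share was 33.2%. Of the 67 genes, 33 were nearest to some β-catenin summit under 10 kb away, against 12.97% of all protein-coding genes. Irx2, an Iroquois homeobox gene, had 13.0 and 13.1, and Ebf1 had 10.2 and 13.6. Ebf3, of the same family of helix-loop-helix factors, had 4 members, the strongest at 11.7 and 12.4. Prrx1, a homeobox gene of limb mesenchyme, had a site 1.22 kb upstream at 11.7 and 12.1. The LIM homeobox genes Lhx9 and Lmx1b, the latter a determinant of dorsal limb identity, had 9.83 and 12.4 and 10.54 and 8.89, respectively. None of the 23 was in a peak of either C59 replicate, but only 1.55% of all members were in one.

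Genes of the tissue programmes differed among themselves. The cartilage list had a member at 7 of 23 genes (30.4%, 15.6 to 50.9%), led by Sox5, a SOX factor of chondrocytes, with a site 6.17 kb upstream at 15.99 and 14.98, and by Wwp2, a ubiquitin ligase gene, with a consensus value of 12.4. Muscle precursor genes had one at 5 of 16 (31.3%, 14.2 to 55.6%). Besides Eya2, they included Eya1, of the same family, with 6.68 and 8.82. Any β-catenin summit under 10 kb away was nearest to 9 of the 23 cartilage and 7 of the 16 muscle genes. Over all protein-coding genes that share was 12.97%. Of endothelial and blood markers 2 of 23 had a member, the ETS factor genes Erg and Fli1, with fold enrichments of at most 6.50, and of neural markers 0 of 20, which allows a share of up to 16.1% by the Wilson interval. The part of each cell type in these counts was not tested.

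The genes with most members were none of the listed ones. Runx1t1, which encodes a transcriptional corepressor, had 7, with consensus fold enrichments of 5.35 to 9.29, and 2 of these had a core. Sgms1, a sphingomyelin synthase gene, had 6 from 2.29 to 15.8, with a core at 4. Next, with 5 each, were 4930505G20Rik, Bcas3, Gm44808, Tenm4 and Zfp608. At Bcas3 they ranged from 3.78 to 17.5 and 3 had a core, and at Tenm4, which encodes a teneurin, from 6.36 to 16.6 with a core at 0 of 5. These counts are of summits, and some of those at 4930505G20Rik, Gm44808 and Sgms1 shared a peak region. Over the class, the 3158 members were in 2991 peak regions. Another β-catenin summit, which could be in the same region, was within 10 kb of 1120 members (35.5%). That share is not given here for all summits.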

How the data were processed

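Forelimb buds of E10.5 embryos collected 6 h after C59 or DMSO were used for ChIP-seq. The authors trimmed reads (cutadapt 4.1 per the labels, another version in the methods), mapped them to mm10 with Bowtie2 2.4.5, called peaks with macs2 2.2.7.1 without input, and for consensus lists removed duplicates with Picard 2.27.4, sampled replicates to equal depth and kept summits found in both. Deposited rows give the fold enrichment (a ratio), and the −log10 of the p-value and of the q-value. Input samples and the blacklist were not used here.

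Summits were assigned to GENCODE M21 transcripts and read on GRCm38. A gene owns a member when it has the nearest TSS. Windows of 200 bp were searched on both strands, with control windows 2000 bp away. Shares carry 95% Wilson intervals, differences Newcombe intervals, and H3K27ac at promoters an exact permutation test. Coverage was solved from the deposited fold and p-value of each summit, for −log10 p up to 250, to within 0.01. By background coverage times genome size, β-catenin libraries held 2.93 to 3.42 Gb of fragments and H3K27ac libraries 5.03 to 5.93 Gb, and coverage sets which peaks could be called.

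Members and lists were chosen with earlier results of these data known. Named were the 10 members of highest fold, the 10 highest in C59 consensus peaks (Khdc3 and Cldn34d were added after their values were seen), up to 6 per gene list and the 5 genes with most members (with ties). Functions were tested on simulated data. Software: scipy 1.17.1, pysam 0.24.0, pandas 2.3.3, numpy 2.4.6 and Python 3.11.15.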

Additional observations from a re-analysis of the deposited data

How the results depend on the processing

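The calling limit bounds the C59 comparison, since weak binding below it would go unlisted. As a p-value limit it was stricter in C59 than in DMSO lists although the libraries were of like depth, and the cause was not tested. The lowest −log10 q was similar, at 1.31 and 1.41 in the C59 lists and 1.30 in both DMSO lists. The C59 lists held 283 and 315 summits and the DMSO lists 20148 and 25765. All shares depend on the authors' calls. The settings tried were stricter q-value and fold limits, other TSS limits and sets, other H3K27ac exclusions, 1 summit per region and each replicate alone, and the share of members upstream of the TSS stayed within its interval under all of them.

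The number of members was 1700 at 1 to 5 kb and 1235 with TSSs of protein-coding transcripts only, and 3911 and 4964 from 1 replicate alone. The core share was 24.7% in windows of 100 bp, 40.8% in 400 bp, 38.5% with CTTTGA, 9.18% with CTTTGAT between 2 bases of C or G, 35.0% with protein-coding TSSs, 34.9% outside H3K27ac peaks extended by 1 kb, and 30.5% and 30.02% from 1 replicate alone. With control windows 5 kb away the ratio was 3.83. The C59 share was 1.55% with a peak of either C59 replicate, 0.380% outside extended H3K27ac peaks, and, chosen after seeing the data, 0.369% for members more than 500 bp from H3K27ac, where the core share was 35.2%. From 1 DMSO replicate alone it was 0.588% and 0.504%.

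The share with an acetylated nearest TSS was 10.3% at 2.5 to 10 kb, 30.2% with protein-coding TSSs, 9.996% outside extended H3K27ac peaks and 18.6% with a peak within 1 kb of the TSS. The intron share was 61.5% with protein-coding TSSs. The median fold was 7.87 at a −log10 q of at least 10, 7.54 at a fold of at least 5, 7.05 with 1 summit per region, and 5.45 and 5.23 from 1 replicate alone. The share of protein-coding genes with a member was 4.20% and 4.56% under these 2 limits, 3.90% at 2.5 to 10 kb, 3.12% at 1 to 5 kb, 4.70% with protein-coding TSSs, 4.37% outside extended H3K27ac peaks, and 6.51% and 8.29% from 1 replicate alone. Fewer or more summits enter under these settings by construction, except with a peak within 1 kb of the TSS, which changes the criterion and leaves the members as they are.

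The difference in acetylated nearest TSSs between C59 and DMSO had no stable direction. It was -0.633 points with a peak within 1 kb of the TSS, and from -0.158 to 0.602 points without 1 replicate, negative without DMSO replicate 1 or C59 replicate 1, with no test because 1 arm then has 1 list. In a paired analysis with the replicate number as a block it was 0.222 points (exact sign-flip test, p = 1), where 2 pairs cannot give a p below 0.5. The numbers are not stated to pair the samples.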
